A study of Homo sapiens with 8 samples.

Results

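The genes described here are 10 regulators of the G1 phase of the cell cycle: the CDK inhibitors CDKN1A, CDKN1B, CDKN1C, CDKN2A, CDKN2B and CDKN2C, the D-type cyclins CCND2 and CCND3, and the kinases CDK4 and CDK6. They were taken by symbol from an RNA-seq table of 30755 genes, where all 10 were found, and all 10 passed the filter on low values that left 15577 genes for testing. The 4 libraries are of the ESO26 line, which was derived from a human oesophageal adenocarcinoma and grown in RPMI-1640 with serum. In 2 libraries, named siHNF4A 1 and siHNF4A 2, HNF4A had been knocked down with small interfering RNA (siRNA), which lowers the mRNA it matches, and 2 libraries, control 1 and control 2, are labelled as control without a stated treatment. The titles write the knockdown libraries as siHNF4AB1 and siHNF4AB2, without explaining the B, and do not say whether both received the same siRNA sequence. The labels give no dose, no time after transfection and no control siRNA, and they do not say whether the libraries of a group came from separate cultures, so that the tests measure the spread between these libraries, which may be technical. The series' text mentions triplicates, and 2 libraries per group were analysed here.

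In G1, CDK4 and CDK6 pair with D-type cyclins and phosphorylate the retinoblastoma protein RB, which frees E2F transcription factors to switch on the genes of DNA synthesis. The INK4 inhibitors, encoded by CDKN2A, CDKN2B and CDKN2C, bind CDK4 and CDK6 and keep them from their cyclins. The CIP/KIP inhibitors, encoded by CDKN1A (p21), CDKN1B (p27) and CDKN1C (p57), bind cyclin-CDK complexes of a wider range, including those of CDK2. Loss of CDKN2A and gain of CDK6 or of D-type cyclin genes are recurrent in oesophageal adenocarcinoma. HNF4A is a nuclear receptor of liver, gut and kidney epithelium.

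The values are normalized counts as the authors deposited them, without division by gene length, so levels are compared between libraries and not between genes. They summed to between 17912507 and 18613685 per library. The number of reads is unknown. Of 8 markers of columnar epithelium all were above the filter, with sums of 98236 to 111096 normalized counts per library; EPCAM, KRT8, KRT18 and CLDN4 were called lower and KRT19 and CDH17 higher in the knockdown by the limma test described with the calls. The summed values were 15.0 to 36.2 for squamous, 6.43 to 17.6 for blood cell and 153 to 259 for fibroblast markers, and 24.6 and 15.2 in the control against 64.0 and 47.2 in the knockdown libraries for endothelial markers. The endothelial sum moved with VWF, which was at 8.55 and 6.68 in the control and 47.5 and 36.4 in the knockdown libraries, while CDH5 overlapped between the groups. In the squamous sum KRT14 was at 0.637 and 2.29 against 12.2 and 25.7, and KRT5 at 32.6 and 12.1 against 6.14 and 10.5. VWF and KRT14 passed the filter on low values only through the knockdown libraries, so their values are a description. The part of these markers in the results was not tested. HNF4A had 4129 and 3937 normalized counts in the control and 1140 and 932 in the knockdown libraries, which is a change of -1.97 ± 0.095 (standard error) on the log2 scale.

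The short stretches of DNA before a start of CDKN1A, CDK4, CDK6 and CDKN2C are shown because these genes changed in different directions after the knockdown and differ in the base composition of their promoters. Each is the 250 bases before a transcription start in a table of RefSeq promoters (GRCh38.p14), the most upstream start in that table where it gives more than 1, read 5′ to 3′ on the strand of the gene. The RefSeq genes CDK4, CDK6 and CDKN2C begin right after their stretches, whereas the RefSeq gene CDKN1A begins further upstream, at position 36676463, so that its stretch precedes a downstream start and lies inside the gene. Capitals mark GC boxes (GGGCGG, the site of SP1-type factors) and E boxes (CACGTG), both searched on both strands, and those of different kinds do not overlap.
CDKN1A, chr6:36678464-36678713, plus strand: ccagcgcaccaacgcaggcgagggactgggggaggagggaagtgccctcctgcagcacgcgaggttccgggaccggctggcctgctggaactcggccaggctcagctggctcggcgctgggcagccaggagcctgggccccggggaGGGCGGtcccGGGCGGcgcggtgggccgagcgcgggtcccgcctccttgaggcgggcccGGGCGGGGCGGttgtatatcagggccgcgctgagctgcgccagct
CDK4, chr12:57752311-57752560, minus strand: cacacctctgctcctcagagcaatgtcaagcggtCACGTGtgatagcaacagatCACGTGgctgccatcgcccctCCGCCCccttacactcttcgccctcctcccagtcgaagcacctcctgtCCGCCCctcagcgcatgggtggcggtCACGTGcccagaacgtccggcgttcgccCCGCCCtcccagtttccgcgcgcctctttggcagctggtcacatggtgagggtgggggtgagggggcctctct
CDK6, chr7:92836574-92836823, minus strand: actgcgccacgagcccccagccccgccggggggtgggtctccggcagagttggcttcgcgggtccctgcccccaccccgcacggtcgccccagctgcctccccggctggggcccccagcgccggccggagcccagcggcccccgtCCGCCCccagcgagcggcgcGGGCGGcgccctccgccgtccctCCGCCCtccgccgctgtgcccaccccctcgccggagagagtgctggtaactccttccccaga
CDKN2C, chr1:50960495-50960744, plus strand: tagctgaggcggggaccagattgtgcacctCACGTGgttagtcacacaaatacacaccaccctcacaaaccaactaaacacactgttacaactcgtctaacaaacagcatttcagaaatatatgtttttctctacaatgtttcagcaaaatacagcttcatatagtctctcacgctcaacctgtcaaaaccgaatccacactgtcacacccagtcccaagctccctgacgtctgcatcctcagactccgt
RefSeq promoter entries were matched for 8 of the 10 genes, all but CDKN1C and CCND2. The stretch of CDK6 was 80.0% G and C with 30 CpG pairs, that of CDKN1A 76.4% with 27, and that of CDK4 65.6% with 19, while that of CDKN2C was 45.6% with 7. The RefSeq promoters hold 3 starts for CDKN2C and 2 for CDK6, and the composition before their other starts was not measured. The median over 27305 genes was 57.6% with 10 CpG pairs. The CDKN1A stretch held 4 GC boxes, of which the pair nearest to the start shares 1 base, and those of CDK4 and CDK6 held 3 each. A GC box was present in 6 of the 8 stretches and in 42.2% of all promoters of the same length. The 6 include CCND3, whose stretch lies inside its RefSeq gene, as that of CDKN1A does. The CDK4 stretch held 3 E boxes and that of CDKN2C held 1, and an E box was present in 6.46% of all promoters. The letters CAAAGTCCA, a core form of the HNF4 site, were in none of the 8 stretches and in 0.289% of all promoters, and the E2F forms TTTCCCGC and TTTGGCGC were in none of the 8 and in 1.42% and 0.542% of all promoters. A match of letters is a description and not a bound site.

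After HNF4A knockdown CCND2, CDKN1A and CDK4 fell, CDKN2C and CDK6 rose, and CDKN1B, CDKN1C, CDKN2A, CDKN2B and CCND3 did not pass the test. Calls required an adjusted p under 0.05 in limma, a linear model on log2(normalized count + 1) that shares variance across genes, with Benjamini-Hochberg adjustment over all 15577 genes tested. Of the 10 genes 5 were called, 2 higher and 3 lower, against 14.1% of all genes tested (6.02% higher and 8.11% lower). These genes and the lists described below were chosen with earlier results of these data known, so their shares are a description. Since all 10 are well above the filter, the nearer background is the 19.8% called among the 9691 genes that average 189 normalized counts or more, the mean of CDKN1C, the lowest of the 10. In 7 of the 10 both knockdown libraries lay outside both control libraries, against 57.0% of all genes tested (26.9% above and 30.1% below). The median log2 fold change of the 10 was -0.015 and that of all genes -0.0073. For 2 libraries against 2 the smallest two-sided p of an exact permutation test is 0.333, and the calls therefore rest on the variance that the model shares across genes.

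**Figure D1:**
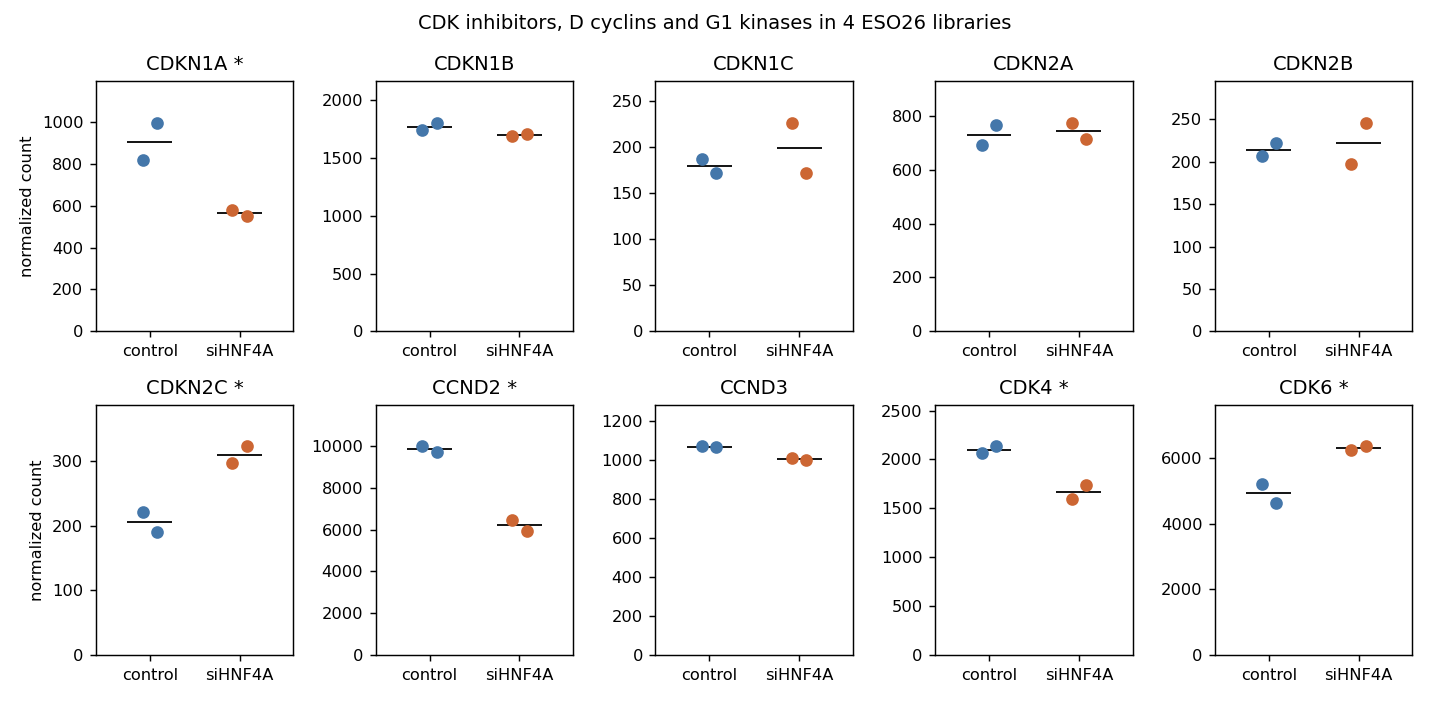
Normalized counts (vertical axes, each from 0) of the 10 genes in the 2 control libraries (blue) and the 2 siHNF4A libraries (orange), with the group mean as a line and an asterisk where the gene was called. CCND2, CDKN1A and CDK4 lie lower and CDK6 and CDKN2C higher in both knockdown libraries, while the groups of CDKN1C, CDKN2A and CDKN2B overlap.

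Among the D-type cyclins, CCND2 changed and CCND3 did not pass the test. CCND2 had 9988 and 9741 normalized counts in the control libraries and 6473 and 5931 in the knockdown libraries. Both knockdown libraries lay below both controls, and the gap was far wider than the spread within either group. The group means were 9864 ± 174 and 6202 ± 383 (SD, n = 2), which left 62.9% of the control level. On the log2 scale the change was -0.67 (95% interval -0.80 to -0.54) with an adjusted p of 1.96e-04 in limma, which ranked the gene 51 by p among the 15577. Leaving out 1 of the 4 libraries gave log2 fold changes from -0.73 to -0.61. A group left with a lone library has no spread of its own in such a fit. The antisense gene CCND2-AS1, which overlaps CCND2 in RefSeq, had between 3.05 and 7.33 normalized counts.

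CCND3, which encodes a D-type cyclin best known from blood cells, had 1072 and 1070 normalized counts in the control libraries and 1012 and 1003 in the knockdown libraries. The groups did not overlap, and the mean decreased by 5.90%. The log2 fold change of -0.088 had a 95% interval from -0.27 to 0.093 and an adjusted p of 0.524 in limma. Relative to CCND3, CCND2 was lower by 0.58 on the log2 scale in the knockdown: the log2 ratio of CCND2 to CCND3, set to a mean of 0 in the control, lay at 0.017 and -0.017 in the controls and fell to -0.53 and -0.64 in siHNF4A 1 and 2.

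CDK4 and CDK6, the kinases that these cyclins activate, moved in opposite directions. CDK4 had 2061 and 2133 normalized counts in the control libraries and 1599 and 1738 in the knockdown libraries, means of 2097 ± 50.8 and 1669 ± 98.3 (SD, n = 2). Both knockdown values were below both controls, and the mean fell by 20.4%. The log2 fold change was -0.33 (95% interval -0.50 to -0.16), at an adjusted p of 0.0173 in limma, and without siHNF4A replicate 1 it was -0.27 with an adjusted p of 0.121, past the threshold no longer. TSPAN31, a tetraspanin gene that overlaps CDK4 in RefSeq, had 283 and 282 normalized counts in the control and 219 and 205 in the knockdown libraries (adjusted p = 0.0735 in limma), and whether the counting separated the genes by strand is not given in the sources used here.

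CDK6 had 5228 and 4636 normalized counts in the control libraries and 6257 and 6367 in the knockdown libraries. Both knockdown values were above both controls, although the controls lay further apart (4932 ± 418, SD, n = 2) than the knockdown libraries (6312 ± 77.4). The mean rose by 28.0%, with a log2 fold change of 0.36 (95% interval 0.21 to 0.51) and an adjusted p of 0.00755 in limma. Without siHNF4A replicate 2 the adjusted p was 0.0531, at a log2 fold change of 0.35. The log2 ratio of CDK6 to CDK4, set to a mean of 0 in the control, lay at 0.11 and -0.11 in the controls and at 0.74 and 0.64 in siHNF4A 1 and 2. CDK6 mRNA relative to CDK4 mRNA was thus 1.61 times its control value, a ratio in which gene length and library scaling cancel.

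Of the CIP/KIP inhibitors only CDKN1A was called. CDKN1A, whose product p21 is the classical target of p53 and also responds to differentiation signals, had 816 and 997 normalized counts in the control libraries and 581 and 551 in the knockdown libraries. The controls differed from each other more than the knockdown libraries did, but the groups did not overlap. The means were 907 ± 127 and 566 ± 21.6 (SD, n = 2), which left 62.4% of the control. The log2 fold change was -0.67 (95% interval -0.92 to -0.42) at an adjusted p of 0.00458 in limma. It lay between -0.82 without control replicate 1 and -0.53 without control replicate 2.

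CDKN1B, whose product p27 is regulated largely by degradation of the protein, had 1740 and 1806 normalized counts in the control and 1694 and 1711 in the knockdown libraries. The groups were close and did not overlap, with a log2 fold change of -0.059 (95% interval -0.22 to 0.10) and an adjusted p of 0.639 in limma. CDKN1C, an imprinted gene expressed from the maternal allele in most tissues, had 187 and 172 normalized counts in the control and 226 and 172 in the knockdown libraries. The groups overlapped, and the interval of the log2 fold change, from -0.26 to 0.53 around 0.14, admits a rise of the size seen for CDK6 as well as no change (adjusted p = 0.657 in limma).

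Of the INK4 inhibitors only CDKN2C was called, and it rose. CDKN2C (p18) had 221 and 191 normalized counts in the control libraries and 297 and 323 in the knockdown libraries. Both knockdown values were above both controls, with means of 206 ± 21.5 and 310 ± 17.9 (SD, n = 2). The log2 fold change was 0.59 (95% interval 0.27 to 0.91) at an adjusted p of 0.0238 in limma. The call was lost in 3 of the fits that left out 1 library: without control replicate 2, siHNF4A replicate 1 or siHNF4A replicate 2 the adjusted p was 0.0728, 0.0717 and 0.141, and it was 0.0864 when all genes above 0 in at least 1 library were tested.

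CDKN2A and CDKN2B lie next to each other on chromosome 9p21 and are often deleted together in cancers, and both were above 0 in each ESO26 library. CDKN2A had 695 and 769 normalized counts in the control and 776 and 716 in the knockdown libraries, so that the groups overlapped. Its log2 fold change was 0.028 (95% interval -0.19 to 0.25) with an adjusted p of 0.886 in limma. The gene encodes p16 and, from another first exon and reading frame, the p53 regulator ARF, and a value per gene does not separate the transcripts. CDKN2B (p15), a gene induced by TGF-beta in epithelial cells, had 207 and 222 normalized counts in the control and 197 and 246 in the knockdown libraries. The groups overlapped, with a log2 fold change of 0.041 (95% interval -0.32 to 0.40) and an adjusted p of 0.898 in limma. The log2 ratio of CDKN2C to CDKN2A was 0.56 higher in the knockdown than in the control.

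Of the 11 genes listed as 9p21 neighbours, 10 were in the table and 6 were tested, of which 1 was called (16.7%, against 14.1% of all genes). MTAP, a methionine salvage enzyme often lost together with CDKN2A, fell from 808 and 833 to 639 and 679 normalized counts (log2 fold change -0.32, adjusted p = 0.0484 in limma). That call was lost without any 1 of the libraries (adjusted p of 0.0675 to 0.212 in limma) and after median-ratio rescaling or quantile normalization. KLHL9, FOCAD, DMRTA1 and MLLT3 were not called. The antisense RNA CDKN2B-AS1, which overlaps CDKN2A and CDKN2B and has been linked to their silencing, had 7.46 and 18.2 normalized counts in the control and 23.4 and 27.2 in the knockdown libraries. The groups did not overlap, but at this level the log2 fold change of 1.04 had a standard error of 0.48 and was not called (adjusted p = 0.185 in limma). Leaving out 1 library moved it from 0.45 without control replicate 1 (adjusted p = 0.574 in limma) to 1.63 without control replicate 2 (0.0411). IFNB1, IFNE, MIR31HG and ELAVL2 were at most 3.05 normalized counts in every library.

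**Figure D2:**
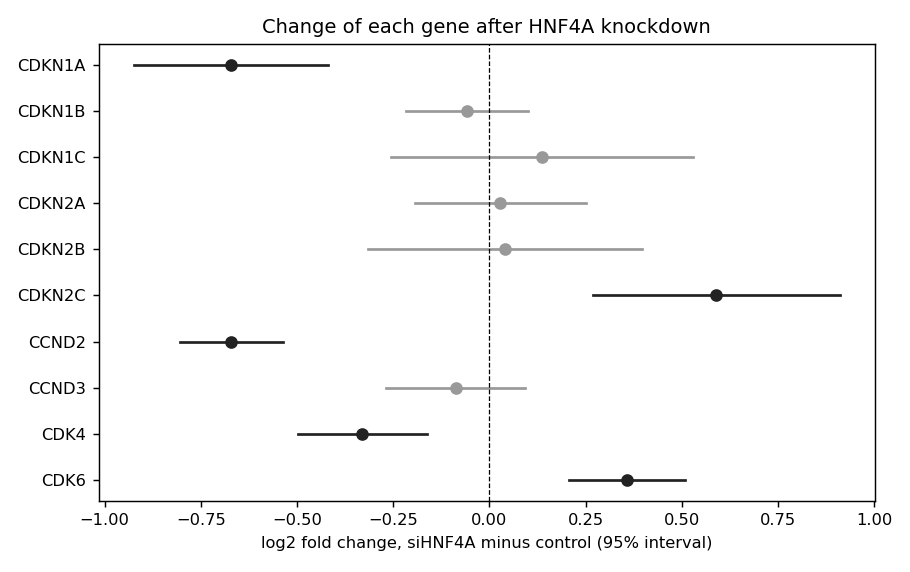
Log2 fold change of each gene (siHNF4A minus control, horizontal axis) with its 95% interval from limma, called genes in black and the others in grey. CDKN1A, CCND2 and CDK4 lie left of 0, CDKN2C and CDK6 right of it, and the 5 other intervals include 0.

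Precision differed with the normalized count: the standard error of the log2 fold change was 0.060 for CCND2, which had the highest counts of the 10, and 0.18 for CDKN1C, which had the lowest. A change of the size of CDK6 or larger, in either direction, was measured in 27.0% of all genes tested. The genes whose values over the 4 libraries were most like those of CCND2, the member with the smallest p, were sought among 10917 other genes with a mean of at least 100. By Euclidean distance of log2 values centred on each gene's mean they were ANKRD13A (0.019), PANK3 (0.020) and NKD2 (0.038), which had log2 fold changes of -0.67, -0.65 and -0.66. The likeness rests on 4 libraries in 2 groups.

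**Figure D3:**
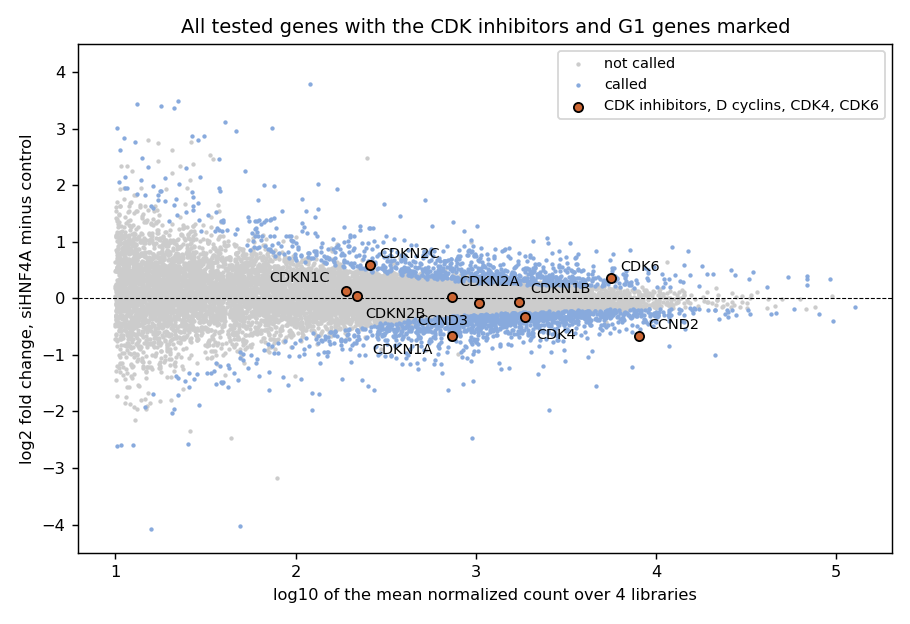
Log2 fold change (siHNF4A minus control) against log10 of the mean normalized count of all tested genes, called genes in blue, others in grey and the 10 cell cycle genes in orange. CCND2 and CDK6, the pair with the highest normalized counts (not divided by gene length), lie below and above 0.

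The other genes of the G1 pathway were described from a list of 24, all of them tested, of which 3 (12.5%) were called, all lower, against 14.1% of all genes tested and 19.8% of those at the level of the 10; the median log2 fold change was -0.10. CCND1, the third D-type cyclin gene, had 410.4 and 407.5 normalized counts in the control and 175 and 99.1 in the knockdown libraries. Both knockdown values were far below the controls, with a log2 fold change of -1.63 (standard error 0.23) and an adjusted p of 0.00192 in limma. E2F5, a repressor-type E2F that pairs with the RB relatives, fell from 1265 ± 68.0 to 745 ± 65.3 normalized counts (SD, n = 2; adjusted p = 0.00105 in limma). CDK7, the catalytic subunit of the CDK-activating kinase, fell by 0.55 on the log2 scale (adjusted p = 0.0345 in limma), while its partners CCNH and MNAT1 had log2 fold changes of -0.13 and -0.29 and were not called. The call of CDK7 was lost without control replicate 1, siHNF4A replicate 1 or siHNF4A replicate 2 (adjusted p of 0.113, 0.0989 and 0.145 in limma).

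CDK2 (1114 and 1115 against 1082 and 1029 normalized counts), CCNE2 and RB1 were not called, with log2 fold changes of -0.079, 0.022 and -0.074. CCNE1, a cyclin partner of CDK2, had 275 and 298 normalized counts in the control and 195 and 221 in the knockdown libraries, without overlap, and an adjusted p of 0.0606 in limma (0.0493 with the replicate number as a block). CDKN2D, the fourth INK4 gene, had 87.5 and 110 against 92.3 and 84.8 normalized counts and was not called (adjusted p = 0.701 in limma). Among the 8 E2F genes E2F5 alone was called, and E2F1, E2F3 and E2F4 had log2 fold changes of 0.083, -0.16 and -0.0068. RBL1, a relative of RB1, and E2F2 were not called (log2 fold changes 0.31 and -0.36, adjusted p = 0.108 and 0.111 in limma). Leaving out 1 library gave log2 fold changes from 0.15 to 0.47 for RBL1 and from -0.51 to -0.21 for E2F2.

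Genes that p53 is known to induce, a list to which CDKN1A itself was not added, were compared beside it. Of 30 listed, 29 were tested and 9 (31.0% of those tested, against 14.1% of all genes and 19.8% of those at the level of the 10) were called, 7 lower and 2 higher, with a median log2 fold change of -0.21. MDM2, the ubiquitin ligase of p53, fell from 2010 and 1821 to 1033 and 1365 normalized counts (adjusted p = 0.00554 in limma). RPS27L and TP53INP1 fell by 0.64 and 0.79 on the log2 scale. BTG2, an antiproliferative gene that p53 also induces, rose from 1572 and 1625 to 3419 and 3306 normalized counts (log2 fold change 1.07, adjusted p = 3.21e-05 in limma), and XPC, a DNA damage recognition gene, rose by 0.58. The call of XPC was lost without control replicate 2 or siHNF4A replicate 2 (adjusted p of 0.0921 and 0.250 in limma) and that of TP53INP1 without siHNF4A replicate 1 (0.0621). The calls of the list numbered 4 without siHNF4A replicate 1, 4 without siHNF4A replicate 2 and 5 without control replicate 2, in fits that called 1101, 1013 and 1982 of the 15577 genes.

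Of 17 genes of CIP/KIP protein turnover 3 were called, all lower, which is 17.6% and near the share over all genes tested (14.1%, or 19.8% at the level of the 10). SKP2 and CKS1B, which together bring p27 to its ubiquitin ligase, fell by 0.34 and 0.28 on the log2 scale (adjusted p = 0.0149 and 0.0265 in limma). UHMK1, a kinase that acts on p27, fell by 0.39, from 7503 ± 156 to 5732 ± 469 normalized counts (SD, n = 2). The count was 1, UHMK1, without siHNF4A replicate 1, and CKS1B also lost its call without control replicate 2 or siHNF4A replicate 2 (adjusted p of 0.0843 and 0.101 in limma). Of 21 genes of TGF-beta signalling, FOXO factors and other regulators of CDK inhibitors 2 (9.52%, against the same 14.1%) were called: KLF4, an activator of CDKN1A transcription, rose by 0.33, and SP1, a factor that binds GC boxes, fell from 3101 and 2918 to 2331 and 2393 normalized counts (log2 fold change -0.35, adjusted p = 0.00830 in limma). KLF4 was not called without control replicate 1 (adjusted p of 0.162 in limma), siHNF4A replicate 1 (0.101) or siHNF4A replicate 2 (0.179), nor SP1 without siHNF4A replicate 1 (0.0557).

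Of 30 RB-E2F target genes, 8 of which are also on the G1 list, 8 (26.7%, against 14.1% of all genes tested and 19.8% of those at the level of the 10) were called, 7 lower and 1 higher, with a median log2 fold change of -0.15. POLA1, CDK1 and MCM6 fell by 0.49, 0.31 and 0.31 on the log2 scale. The count was 2 without siHNF4A replicate 2, where MCM6 was not called, and CDK1 was not called without siHNF4A replicate 1 (adjusted p of 0.0627 in limma).

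**Figure D4:**
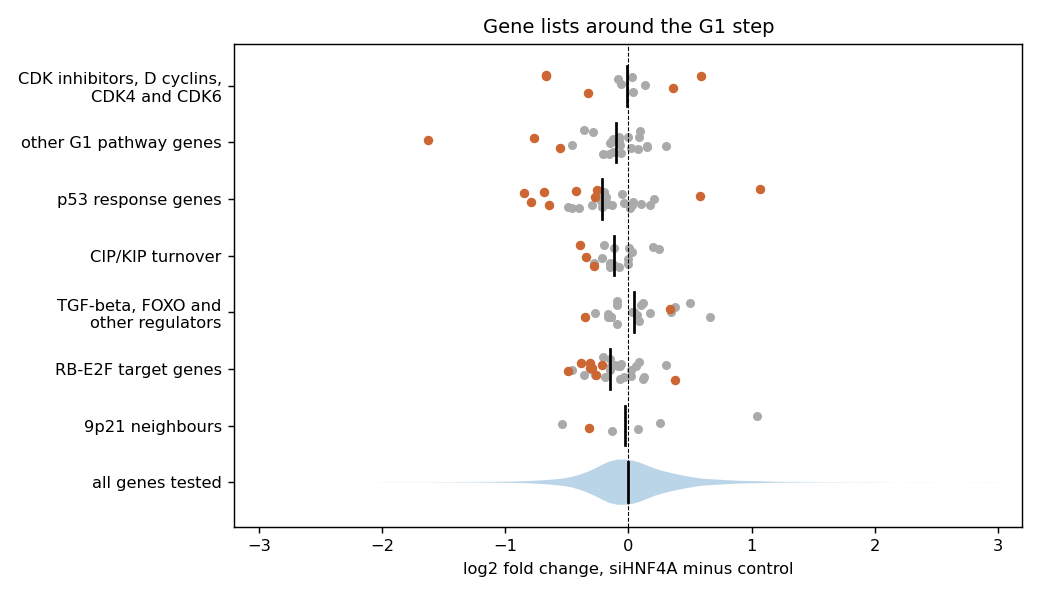
Log2 fold change (siHNF4A minus control, horizontal axis) of each tested gene of the 10 cell cycle genes and of 6 lists, called genes in orange, others in grey, with medians as black lines and the distribution of all tested genes at the bottom, drawn between -3 and 3. The medians of the p53 list (-0.21) and the RB-E2F list (-0.15) lie left of 0, and that of the 10 genes (-0.015) lies near it.

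The neighbouring genes on the chromosome were compared with the 10 genes. The nearest tested protein-coding gene on each side in RefSeq order gave 18 neighbours, at distances from 0.1 to 437.5 kb, of which 1 was called higher and 3 lower, against 6.02% and 8.11% of all genes tested. Of the 10 neighbours of the 5 called genes, 1 was called in the direction of its neighbour: PPIL1, a spliceosomal isomerase gene 167.5 kb from CDKN1A, fell from 1292 and 1281 to 636 and 559 normalized counts (log2 fold change -1.11, adjusted p = 1.60e-04 in limma). FAF1, 0.5 kb from CDKN2C, was called in the other direction, with a log2 fold change of -0.36, a call that was lost without siHNF4A replicate 2 (adjusted p of 0.111 in limma). The neighbours of CCND2, CDK4 and CDK6 were not called. In bulk RNA a change in the share of cells in a cell cycle phase and a change of RNA per cell cannot be told apart.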

How the data were processed

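RNA-seq values of 4 ESO26 libraries were analysed. They are a signal, normalized counts per gene symbol that the authors deposited, and the normalization method, aligner, counter and annotation of the RNA-seq are not given in the sources used here. The submitters' processing notes name the build hg19 for all samples. The RNA-seq was made from column-purified total RNA, per the labels' protocols. Whole reads could not be recovered: between 54.8% and 66.4% of the values above 0 in 1 library alone lay on multiples of a common step, within 2% of the step, as did between 3.72% and 37.3% of the values of genes with a mean from 10 to under 50.

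Genes with a mean of at least 10 were tested in limma 3.58.1 (R 4.3.3; lmFit, eBayes with an intensity trend) on log2(value + 1), without a block. Fold changes on this scale understate those of low genes. Groups come from the titles. The 10 genes were given by symbol. Of each list the 3 called genes with the smallest adjusted p in each direction were named, and any gene of the G1 and 9p21 lists; 1 gene of the RB-E2F list is not reported here. The genes and lists were chosen with earlier results of these data known. TIGAR was read under its older symbol C12orf5. Comparisons with neighbours and the background of genes with a mean of at least that of CDKN1C were chosen after the values were seen. Alternatives were other pseudocounts, filters, scalings and variance models, a replicate block and leaving out each library. The fit was tested on simulated data. Promoter sequences, gene order and overlaps come from RefSeq GRCh38.p14. The ChIP-seq peak lists were not used here, since the placement of peaks at genes needs an annotation of hg19, and the 4C libraries were not analysed here. Without transcript lengths and protein sequences, the planned comparisons of levels between genes and of protein identity were not made.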

Additional observations from a re-analysis of the deposited data

How the results depend on the processing

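The direction of the 5 called genes held in each alternative that was run. Without the variance trend none of the genes was called: HNF4A (-1.97), CDKN1A (-0.67), CCND2 (-0.67), CDK4 (-0.33), CDK6 (0.36) and CDKN2C (0.59) kept their log2 fold changes and had adjusted p in limma of 0.0919 to 0.176, and the number of calls was 0 over all genes, of which 3524 had an unadjusted p under 0.05, 0 of the 10 genes, of which 5 had such a p, and 0 in each of the 6 lists. With all genes above 0 tested, CDK4 (-0.33), CDK6 (0.36) and CDKN2C (0.59) were no longer called, and calls numbered 726 over all genes, 2 of the 10, 1 of the p53 list, 1 of the turnover list, 2 of the RB-E2F list, 0 of the TGF-beta and FOXO list and 0 of the 9p21 list. Quantile normalization gave 5 calls in the turnover list, and it and median-ratio rescaling gave 0 in the 9p21 list. Quantile normalization also gave 1041 higher and 1026 lower calls over all genes, against 938 and 1264. E2F4, not called, went from -0.0068 to 0.033 after quantile normalization. Of 325 values of 41 other named genes under alternatives with all libraries and the trend, 308 kept their direction and side of the threshold, and without the trend 22 of the 41 lost their call. Leaving out 1 library, 131 of 164 values of these genes kept both, 22 lost and 4 gained a call and 7 changed sign. The cause of these shifts was not tested.

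Leaving out each library in turn, where a lone library is assumed to vary like the other group, gave log2 fold changes from -2.11 to -1.82 for HNF4A, -0.82 to -0.53 for CDKN1A, -0.086 to -0.032 for CDKN1B, -0.061 to 0.33 for CDKN1C, -0.045 to 0.10 for CDKN2A, -0.12 to 0.20 for CDKN2B, 0.48 to 0.70 for CDKN2C, -0.73 to -0.61 for CCND2, -0.095 to -0.081 for CCND3, -0.39 to -0.27 for CDK4 and 0.27 to 0.45 for CDK6. The signs of some genes that were not called changed as well, over -0.31 to 0.016 for CDKN2D, -0.16 to 0.0078 for RB1, -0.016 to 0.18 for E2F1, -0.046 to 0.033 for E2F4 and -0.504 to 0.24 for MLLT3. Calls numbered 1013 to 2449 over all genes, 3 to 5 of the 10 genes, 4 to 10 of the p53 list, 1 to 3 of the turnover list, 0 to 3 of the TGF-beta and FOXO list, 2 to 8 of the RB-E2F list, 2 to 3 of the G1 list and 0 to 1 of the 9p21 list. Over all genes they numbered 1101 without siHNF4A replicate 1 and 1013 without siHNF4A replicate 2.

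With the replicate block 2428 genes were called, among them the same 5 of the 10, and 11 of the RB-E2F list. The deviations of same-numbered libraries from their group means were not correlated (Pearson correlation -0.019 across 15577 genes), and the numbers were treated as names only. Absolute depth is unknown, which limits the genes with the lowest values, such as CDKN2B-AS1, most. The control libraries held 5479 and 5640 genes at 0, and the siHNF4A libraries 4260 and 4362. Among genes above 0 in 1 library alone, the commonest value was 2.444 and 2.227 in the control and 1.79 and 2.024 in the siHNF4A libraries. Detection of low genes thus differed with the groups. Its part in the higher values of CDKN2B-AS1, VWF and KRT14 in the knockdown was not tested.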

Other observations

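FGF23, a hormone gene known from bone cells that lies near CCND2 on chromosome 12, was singled out after its values were seen. It had 7699 and 4467 normalized counts in the control libraries and 4154 and 4665 in the knockdown libraries. Control 1 stood apart from the other 3 libraries, and the gene was not called (log2 fold change -0.41, adjusted p = 0.183 in limma). Without control replicate 2 the log2 fold change was -0.81. Around it, TIGAR (listed under its older symbol) lay between 475 and 580, RAD51AP1 between 773 and 892, and PARP11 between 202 and 245 normalized counts. FERRY3 (listed as C12orf4) was at 773 in control 1 and at 583, 546 and 632 in control 2 and siHNF4A 1 and 2. Control 1 was the highest library also for TIGAR, FERRY3 and RAD51AP1. It was nearly level with another library for DYRK4 (194.8, and 194.6 in control 2), NDUFA9 (2345, and 2337 in siHNF4A 1) and AKAP3 (75.6 in both control 1 and siHNF4A 1). For PARP11 it was the lowest library. None of these genes was called.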
